A study of Caenorhabditis elegans with 2 samples.

Results

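Genes of the mitochondrial protein folding and degradation machinery were examined in a chromatin immunoprecipitation and sequencing (ChIP-seq) profile of HSF-1, the worm heat shock transcription factor. The 7 members are hsp-60, Y22D7AL.10, hsp-6, dnj-10, clpp-1, lonp-1 and atfs-1, and all 7 were found by name among the 19973 protein-coding genes annotated on the nuclear chromosomes of Caenorhabditis elegans (Ensembl annotation, ce11). A member was scored by peaks with a summit from 1000 bp upstream to 200 bp downstream of any of its annotated transcript starts. The material was whole worms of strain RW12254, in which genome editing placed TY1, EGFP and 3xFLAG tags on hsf-1 at its own locus. They were collected as young adults at 63 h, after starved first-stage larvae had been obtained by bleaching, and the antibody was directed against green fluorescent protein. There was 1 group with 2 biological replicates, with no heat treatment in the labels, no second condition and no other strain. All tissues are mixed in such a sample, so binding in a few cells and weak binding in many cells cannot be told apart.

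The peak lists that passed the authors' threshold held 1217 peaks in replicate 1, 1877 in replicate 2, 2935 from both replicates pooled and 2572 in a conservative version. The corresponding ranked lists, which also hold peaks that failed, held 48941, 81721, 97869 and 94547. Each peak carries the peak caller's signal, which can be compared within a list but not between lists. It also carries an irreproducible discovery rate (IDR), where a low value means that a peak ranks alike in 2 sets of peaks and 0.01 is the threshold. Read numbers were not used here, so the depth behind a signal is unknown. Of the 2935 pooled peaks, 2366 had the same width of 304 bp, with a median signal of 84.2 and a highest signal of 262.8. The other 569 had a median signal of 303.2. Positions are 1-based on ce11.

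Mitochondria fold the proteins they import with chaperones of bacterial descent. The HSP70 of the matrix, encoded by hsp-6, works with a DnaJ partner and a nucleotide exchange factor of the GrpE type, and the chaperonin HSP60 forms a chamber that the co-chaperonin HSP10 closes. Proteins that cannot be folded are degraded in the matrix by the ClpP and Lon proteases. When folding fails, worms raise hsp-6 and hsp-60 transcription through ATFS-1, a bZIP transcription factor that is imported into healthy mitochondria and reaches the nucleus when import is impaired, and reporters of both genes are standard readouts of this mitochondrial unfolded protein response. HSF proteins bind heat shock elements, which are alternating GAA and TTC units separated by 2 bases. Human HSP60 and HSP10 genes are also arranged head to head.

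Part of the sequence at the peak shared by hsp-60 and Y22D7AL.10 is shown first. It was chosen because it holds an exact element of 3 units close to the summit of the strongest member peak. The stretch runs from 70 bp on the Y22D7AL.10 side of the summit to 190 bp on the hsp-60 side. The rest of the peak towards Y22D7AL.10 is left out, and elements with 1 mismatch are not marked. The stretch was read from the RefSeq genome of the same assembly on the plus strand. Capitals mark the units of an exact element and every match to TGATGNAA or its reverse complement, the letters of a composite site that C/EBP and ATF family bZIP proteins bind in mammals.
hsp-60 and Y22D7AL.10, chrIII:1619025-1619285, plus strand: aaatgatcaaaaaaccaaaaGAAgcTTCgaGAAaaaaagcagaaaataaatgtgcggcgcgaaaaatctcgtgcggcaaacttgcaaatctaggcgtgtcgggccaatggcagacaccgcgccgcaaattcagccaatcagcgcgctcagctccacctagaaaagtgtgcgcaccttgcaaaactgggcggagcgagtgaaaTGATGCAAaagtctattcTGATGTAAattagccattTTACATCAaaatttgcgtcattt

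Of the 7 members, 6 had a summit of the pooled list in their promoter window, against 7.63% of all protein-coding genes, and lonp-1 did not. The conservative list held a summit for the same 6 members, against 7.11% of genes. The list of replicate 1 held one for 5 (hsp-60, Y22D7AL.10, hsp-6, dnj-10 and clpp-1), against 3.83%, and that of replicate 2 for 3 (hsp-60, Y22D7AL.10 and hsp-6), against 5.29%. The members were chosen with earlier results of these data known, so these counts are a description and were not tested. The 6 members shared 6 distinct pooled peaks, since hsp-60 and Y22D7AL.10 have their strongest peak in common and hsp-60 has a further, weak one. Only the peaks of hsp-60 with Y22D7AL.10 and of hsp-6 were in the lists of both replicates. The peaks of clpp-1 and dnj-10 were in the list of replicate 1 and not in that of replicate 2. Those of atfs-1 and the weak one of hsp-60 were in neither. The lists of replicates 1 and 2 hold 1217 and 1877 peaks against 2935 pooled ones, so absence from either is not particular to these members. The share of all pooled peaks in both lists is not given here for comparison. Signal fell steeply from hsp-60 to hsp-6 and again to the others, as the plot of signal by list shows.

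**Figure D1:**
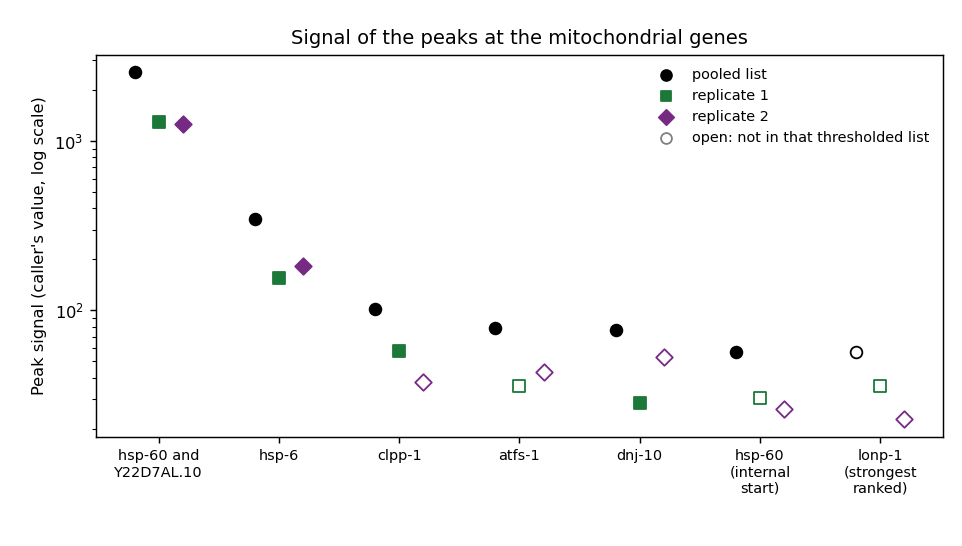
Signal of each member peak (log axis, the peak caller's value) in the pooled list and at the matching peak of each replicate's ranked list. Filled symbols are peaks in the thresholded list and open symbols are not; hsp-60 with Y22D7AL.10 and hsp-6 are filled in all 3, and lonp-1 in none.

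The peak between hsp-60, the chaperonin gene, and Y22D7AL.10, whose product RefSeq names as the mitochondrial 10 kDa heat shock protein, was the strongest of the set. The genes are transcribed away from each other on chromosome III, and their starts are 813 bp apart. The peak (1618870 to 1619280, in intergenic sequence) reached 2560.4 when the replicates were pooled, and its signals by replicate were 1296.5 (replicate 1) and 1254.6 (replicate 2). It ranked 18 of 2935 pooled peaks, 16 of 1217 for replicate 1 and 22 of 1877 for replicate 2, so both replicates placed it near the top. Its IDR was 1e-05 in the pooled list and in each replicate, the lowest value the lists give. The replicate summits lay 12 bp and 0 bp from the pooled summit at 1619095.

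The summit was not in the middle between these genes. It lay 166 bp upstream of the start of Y22D7AL.10 and 647 bp upstream of the first start of hsp-60, which is 20.4% of the way across. Among promoter peaks it ranked 9 of 1338, and its pooled signal was 25.8 times the promoter median of 99.3. The exact element was centred 44 bp from the summit on the Y22D7AL.10 side, which put it 122 bp upstream of Y22D7AL.10 and 691 bp upstream of hsp-60. An element with 1 mismatch was centred 75 bp from the summit on the same side. The promoter peaks next above it in pooled signal were those of C47E8.4 with hsp-90, the cytosolic HSP90 gene (3584.2), and of R107.5 with cls-2 (3069.7). The promoter peaks next below were at ZC262.7 (2408.1) and ZK1053.2 (2134.1). These 4 had 0, 1, 12 and 19 exact elements within 100 bp of the summit, in that order, so the neighbours in rank did not share one element content.

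The peak at hsp-6, the mitochondrial HSP70 gene, was the next strongest (chromosome V, 4827013 to 4827215, width 203 bp). Pooling gave a signal of 345.5, where replicate 1 had 155.7 and replicate 2 had 182.5. The thresholded ranks were 250 after pooling, 231 for replicate 1 and 269 for replicate 2, with IDR values of 2.28e-05, 1e-05 and 1.82e-05. The hsp-60 peak was 7.41 times as strong as the hsp-6 peak after pooling, and 8.33 and 6.88 times as strong by replicate. The summit lay 338 bp upstream of hsp-6 and 262 bp upstream of C37H5.5, a divergent gene that RefSeq names as a nucleolar complex protein 3 homolog. It also fell inside a pair of annotated noncoding RNA genes of opposite strands, C37H5.15 and C37H5.16, so the peak cannot be given to hsp-6 alone. An exact element was centred 37 bp from the summit, on the side towards hsp-6, and 301 bp upstream of its start. As at hsp-60, it was the only exact element within 100 bp of the summit.

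**Figure D2:**
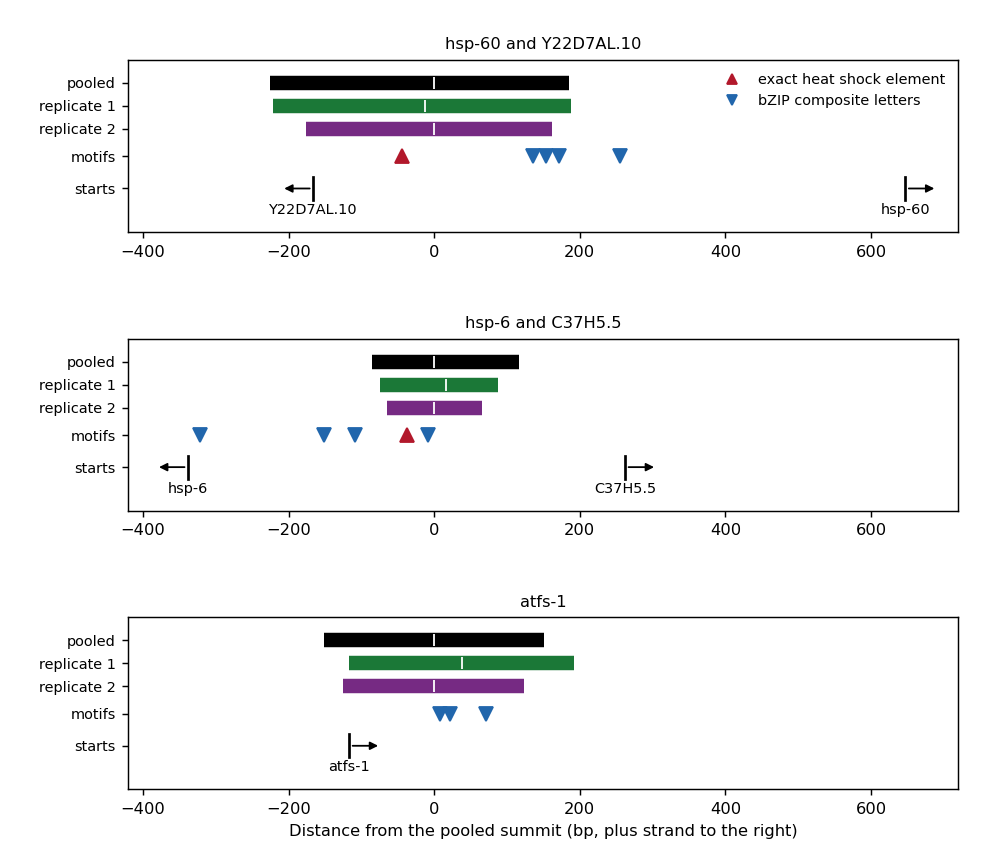
Peaks, motifs and transcript starts around the pooled summits of hsp-60 with Y22D7AL.10, hsp-6 with C37H5.5 and atfs-1, by distance from the summit in bp. Bars are the peaks of the pooled list and the matching ranked peaks of each replicate, with the summit as a white tick, up-pointing triangles are exact heat shock elements and down-pointing triangles are TGATGNAA; the exact elements lie 44 bp and 37 bp from their summits and atfs-1 has none.

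The DnaJ gene dnj-10, a homologue of the bacterial co-chaperone that stimulates HSP70, had a weak peak over its start (chromosome III, 8631024 to 8631327). The pooled signal was 76.3 at an IDR of 0.00358, and the matching peaks had 28.3 (replicate 1) and 53.3 (replicate 2). Replicate 1 listed it, while its IDR of 0.0147 kept it out of the list of replicate 2. Replicate 1 had a further and stronger peak in the window, 180 bp upstream, with a signal of 46.3 and an IDR of 0.0058. The pooled summit lay 11 bp downstream of the start, in a coding exon. There was no exact element, and the nearest was one with 1 mismatch, centred 46 bp on the upstream side, in which capitals mark the bases that fit.
dnj-10, chrIII:8631116-8631146, plus strand: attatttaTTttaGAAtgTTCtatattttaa
Its substitution is C3T, counted from 1 at the first base of the first unit, with the base of the element first.

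The regulator gene atfs-1 had a weak peak inside the gene, 117 bp downstream of a transcript start (chromosome V, 14193652 to 14193955, intron). The pooled signal was 79.2 at an IDR of 0.0036, and the replicates had 35.8 and 43.0 there. The IDR within each replicate was 0.503 and 0.0788, so neither replicate list held the peak, while the pooled and the conservative lists did. In replicate 1 a ranked peak 553 bp upstream of the same gene had a signal of 36.0, as high as the one that matched the pooled summit. There was no element with at most 1 mismatch within 100 bp of the summit. There were 3 matches to TGATGNAA there instead, of which 2 lie next to the summit and are shown in capitals.
atfs-1, chrV:14193800-14193844, plus strand: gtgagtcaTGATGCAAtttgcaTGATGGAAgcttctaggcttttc

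Among the proteases, clpp-1, which encodes the proteolytic subunit of ClpP, had a peak of middling strength (chromosome II, 10301004 to 10301307). The pooled signal was 102.2, where replicate 1 had 57.5 and replicate 2 had 37.8. The IDR was 0.00104 after pooling and 0.00128 for replicate 1, but 0.253 for replicate 2, so the list of replicate 2 did not hold it. The summit lay 76 bp upstream of the start nearest to it, 1 of 4 annotated for clpp-1, and in an intron of the transcripts that start further upstream. It also lay 60 bp upstream of mdt-22, a Mediator subunit gene on the other strand whose start is 136 bp from that of clpp-1. In replicate 2 a ranked peak of about the same size, with a signal of 38.0 and an IDR of 0.0598, had its summit 5 bp upstream of a different start of clpp-1. Neither an exact element nor one with 1 mismatch lay within 100 bp of the pooled summit.

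The gene of the Lon protease, lonp-1, was the member without a pooled peak. The strongest ranked peak of its window lay 505 bp upstream of its start (chromosome I, 10682727 to 10683030), within the neighbouring gene spcs-1. It had a signal of 57.1 and an IDR of 0.0223 in the pooled ranking, 35.6 and 0.102 in replicate 1, and 22.7 and 0.555 in replicate 2. That signal was close to the 56.5 of the second hsp-60 peak (30.4 and 26.2 by replicate, in neither replicate list), which passed at an IDR of 0.0075, so in the pooled ranking these peaks stand just outside and just inside the threshold. In the conservative ranking both were outside it, with IDR values of 0.203 for lonp-1 and 0.0718 for the second hsp-60 peak, which the conservative list does not hold. Binding at lonp-1 was thus not detectable under this threshold, which is not evidence that it is absent.

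Exact elements were found at the 2 strongest member peaks and not at the other 4. Within 100 bp of the summit, 2 of the 6 member peaks held an exact element, and 3 held one with at most 1 mismatch. Over all 1338 promoter peaks of the pooled list the shares were 9.57% and 24.8%, and in 27068 windows of the same length, centred 200 bp upstream of the starts of unbound genes, they were 1.07% and 15.1%. Of the 100 promoter peaks at least as strong as that of hsp-6, 46 held an exact element, against 6.62% of the 1238 weaker ones. The 4 weaker member peaks, all of the common width of 304 bp, held none. Across the whole promoter windows, 3 of the 7 members held an exact element (hsp-60, Y22D7AL.10 and hsp-6, of which hsp-60 and Y22D7AL.10 hold the same one), against 9.29% of all genes and 17.7% of bound genes.

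Matches to TGATGNAA were dense at hsp-60, hsp-6 and atfs-1. This motif was searched on both strands, was not among the results planned for this set of genes, and is a description of letters and not of a site in use. Within 300 bp of the summit, 4 of the 6 member peaks had a match, against 13.9% of all pooled promoter peaks and 15.1% of windows at unbound genes. The 4 were the shared hsp-60 peak and those of hsp-6, atfs-1 and dnj-10. Within 100 bp the count was 2 of 6 (hsp-6 and atfs-1), against 3.89% and 5.11%. Across the promoter windows 6 of 7 members had a match, against 31.9% of all genes. Among the 6 was lonp-1, the member without a pooled peak. The match near dnj-10 lay downstream of its window. That of clpp-1 lay 324 bp upstream of a start inside the gene. Genes with more starts have more sequence searched, and hsp-60, clpp-1 and atfs-1 have 4, 4 and 5. The windows of hsp-60 and Y22D7AL.10 hold the same 4 matches, that of hsp-6 holds 4 and that of atfs-1 holds 3. The cutoff used next, 3 matches, equals the count of atfs-1, the lowest of these members, so it follows their own values. A window with 3 or more was found for 152 of 19973 genes, which was 0.761%, and for 16 of the 1524 bound genes, or 1.05%. At hsp-60 all 4 lay on the hsp-60 side of the summit, between 392 and 511 bp upstream of its first start, while the heat shock element lay on the Y22D7AL.10 side.

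The 3 strongest member peaks lay upstream of divergent starts. The promoter shared by hsp-60 and Y22D7AL.10 was named when the members were chosen, so its place among them was fixed in advance. The summits of 3 of the 6 member peaks, those at hsp-60 with Y22D7AL.10, hsp-6 with C37H5.5 and clpp-1 with mdt-22, lay upstream of starts on both strands, against 20.6% of the 1338 promoter peaks. The first 2 pairs are neighbours with the summit between them, while the start of mdt-22 and the summit lie inside clpp-1. Over the 275 such peaks the starts were 610.0 bp apart in the median and the summit was 173.0 bp from the nearer one. The distance between the starts was at least as long as that of hsp-60 and Y22D7AL.10 in 85 of them. With each summit given only to its nearest start, the hsp-6 peak went to C37H5.5 and the clpp-1 peak to mdt-22, and the strong peak at hsp-60 went to Y22D7AL.10, its HSP10 partner.

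Peaks were not limited to promoters at these genes. The following counts were chosen after the values were seen. Inside hsp-60, which spans 6062 bp, 4 pooled summits lay in coding exons at 460, 1719, 3360 and 4789 bp from its first start, with signals of 78.7, 73.1, 56.5 and 71.3. At least 4 summits were found inside 13 of the 19973 genes, which was 0.0651%, and inside 7 of the 3142 genes whose length is within 1.5 times that of hsp-60. The summit at 3360 bp is also 26 bp upstream of an annotated internal start, which is why it counts as a promoter peak. All 4 were weak: replicate 1 listed none of them and replicate 2 listed the one at 1719 bp. The conservative list held only the 2 at 460 and 1719 bp, so hsp-60 does not reach 4 there. None had an exact element within 100 bp.

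A pooled summit lay within 500 bp past the 3′ end of 4 of the 7 members, against 5.12% of all genes. At hsp-60 it was 58 bp past the end (1625798 to 1625914), with a pooled signal of 165.4, and 50.6 and 124.3 by replicate. At Y22D7AL.10 it was 236 bp past the end (1616821 to 1616989), with a pooled signal of 191.4, and 92.7 and 106.9 by replicate, and it was in no promoter window. Of the bases within 100 bp of that summit, 92.0% are masked as repeats in the RefSeq genome. At hsp-6 it was 250 bp past the end with a pooled signal of 90.7, and at clpp-1 207 bp past the end with 69.1. The first 3 of these signals were above those of all peaks inside hsp-60, and that at clpp-1 lay within their range of 56.5 to 78.7. The peaks past hsp-60, hsp-6 and clpp-1 also lay in the promoter windows of Y22D7AL.4, of adss-1, and of mdt-22 and nep-26. The peaks at the ends of hsp-60 and Y22D7AL.10 were in both replicate lists, that of hsp-6 in replicate 2 alone and that of clpp-1 in neither. None of the 4 held an exact element within 100 bp.

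**Figure D3:**
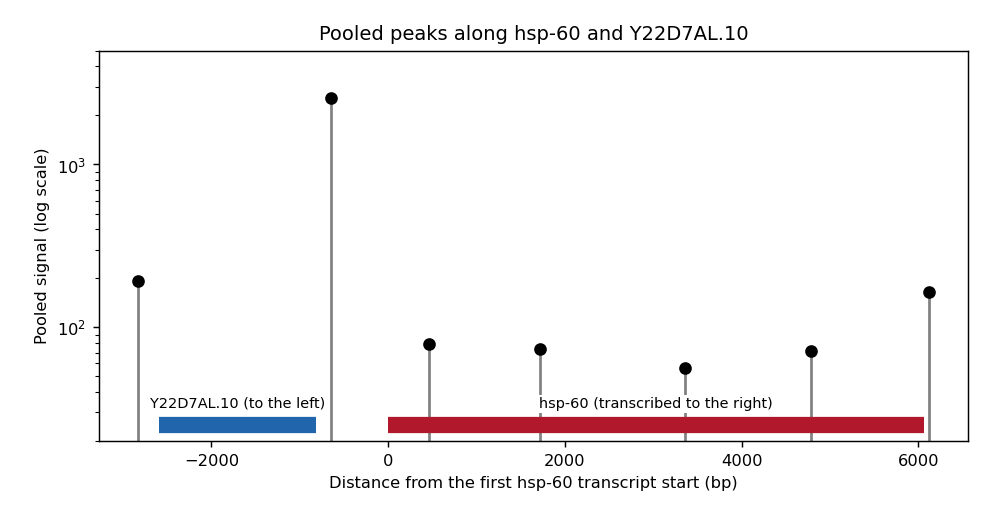
Pooled peaks along the hsp-60 and Y22D7AL.10 locus by distance from the first hsp-60 transcript start in bp (signal on a log axis, each line and point 1 peak, coloured bars the gene models). The shared promoter peak reaches 2560.4, the 4 peaks inside hsp-60 lie between 56.5 and 78.7, and the peaks past the gene ends are at 165.4 and 191.4.

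Of 46 other genes for mitochondrial chaperones, proteases, prohibitins, import, mitophagy and regulators of the unfolded protein response, 9 had a pooled promoter peak, a share of 19.6% against the 7.63% of all genes. Among 4 further chaperone genes only C34C12.8 was bound, whose product RefSeq names as the mitochondrial GrpE homolog, the exchange factor of the HSP70 cycle. Its peak (chromosome III, 3460109 to 3460412) had a pooled signal of 213.5, and 108.9 and 109.8 by replicate. It was in both replicate lists, at rank 371 of 1217 and 526 of 1877. It lay 145 bp upstream of the start and had no element with at most 1 mismatch.

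Import genes were bound in 4 of 17 cases, 23.5% against 7.63% of all genes. The strongest peak was at mtx-1, a metaxin gene of the outer membrane, where pooling gave 1996.0 and the replicates 939.2 and 1085.7. Its summit lay 444 bp upstream of mtx-1 but only 48 bp upstream of dnj-12, a divergent DnaJ gene, and held an exact element. The peak at ddp-1, a small import chaperone of the space between the membranes, reached 223.9 after pooling, 91.6 for replicate 1 and 115.2 for replicate 2, and also held an exact element. It lay 157 bp upstream of ddp-1 and 698 bp upstream of ttc-7. The receptor gene tomm-20 had a signal of 109.5 and was in both replicate lists, and timm-17B.1 had 70.5 and was in neither.

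Regulators were bound in 2 of 8 cases. The peak of jmjd-1.2, a histone demethylase gene, had a signal of 149.1, was in both replicate lists, and also lay in the windows of F29B9.11 and mrps-21. The peak of ubl-5, a ubiquitin-like protein that acts in the response, had a signal of 88.4 with 46.9 in replicate 1, and no ranked peak of replicate 2 overlapped it. Among 10 proteases only mppb-1 was bound, a processing peptidase gene, with a peak of 81.5 and one of 8.05 that matched the same peak of replicate 2. Of 4 mitophagy genes 1 was bound, fndc-1, with a signal of 108.2 in both replicate lists and a summit shared with cchl-1. None of 3 prohibitin genes was bound. These last 2 lists are too short to be set against the 7.63% of all genes. In the plot of ranks, the peaks at hsp-60 and mtx-1 stand nearest the top, and that of hsp-6 follows at rank 100 of 1338.

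**Figure D4:**
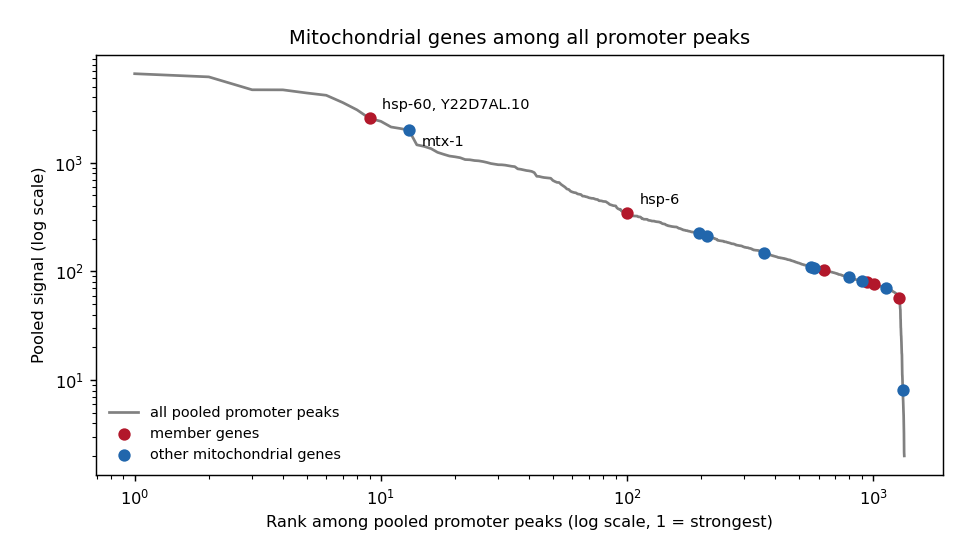
Pooled signal against rank for all 1338 promoter peaks of the pooled list (grey line, both axes log), with the peaks of the member genes in red and of the other mitochondrial genes in blue. The peak of hsp-60 with Y22D7AL.10 has rank 9 and that of hsp-6 rank 100, while the other member peaks lie between 634 and 1273.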

How the data were processed

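ChIP-seq peaks of both replicates were used as deposited. Per the deposited file listings, the lists are on ce11, a replicate's lists derive from the alignments of that replicate and a further file of unstated type, and the pooled and conservative lists from both. For the aligner and peak caller, nothing is given in the sources used here. The signal of each peak is the caller's value, deposited by the authors with no stated scaling. The score, deposited by the authors, is the IDR rescaled to at most 1000, and the −log10 of the IDR was deposited by the authors in the ranked lists. Of the ranked lists made from both replicates, each was taken as pooled or conservative by which thresholded list it wholly held at an IDR of at most 0.01. A further 16 value columns in the pooled ranked tables, whose sample is not named, were not used.

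Replicate values at a pooled peak are those of the overlapping peak (at least 1 bp) with the nearest summit in the replicate's ranked list. Starts were taken from the Ensembl annotation. A peak was divergent when its summit lay upstream of starts on both strands. Elements had 9 fixed bases and were searched on both strands within 100 bp of summits. Everything reported is a count or value, so no p-values were computed. The text names all members, genes sharing their peaks, bound genes of the other list and 2 rank neighbours on each side. The members and lists were chosen with earlier results of these data known. Alternatives were other lists, windows, assignments, overlaps and motif settings. The computations used Python 3.11.15, numpy 2.4.6 and pandas 2.3.3, and were tested on simulated data. A sequence at 1 member is not reported here.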

Additional observations from a re-analysis of the deposited data

How the results depend on the processing

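The 6 bound members became 3 with the list of replicate 2 alone and 5 with that of replicate 1 alone, so the count without replicate 1 rests on hsp-60, Y22D7AL.10 and hsp-6. It was 5 with a window of 500 bp upstream to 100 bp downstream, which dropped atfs-1, and 4 with the nearest start alone. In both settings the strong shared peak is lost to hsp-60, which counts through its weak internal peak. It was also 4 with the stronger part of the pooled list. The shares of all genes under these windows, this assignment and this part of the list are not given here. These counts therefore cannot be set against them. The count of 2 member peaks in both replicates became 6 when the ranked lists were used with no threshold. The other alternatives, for elements, divergent promoters and the 46 other genes, stayed within 1.5 times their counts. For elements and divergent promoters the counts are 2 and 3, and a change between 2 and 3 is still within that bound. It therefore says little about them. With 1 mismatch allowed, 3 member peaks held an element in place of 2. The other genes bound ranged from 7 to 11 over the alternatives, against 9. For the other window and the nearest start, the share of all genes is not given here either. The depth of the libraries is unknown and no control list was analysed here. The weak peaks of dnj-10 and atfs-1 and the middling one of clpp-1 thus rest on the IDR alone.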

Other observations

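Both dnj-10 and lonp-1 follow another gene on the same strand at a short distance. A run was defined, after the values were seen, as genes on 1 strand with at most 500 bp between neighbours, and clpp-1 also follows such a gene, vha-9, at 207 bp, whose window held no pooled peak. The gene upstream of dnj-10 is gpr-1, which ends 388 bp before it. The start of gpr-1 had a pooled peak 319 bp upstream, shared with polk-1, with a pooled signal of 165.7 against 76.3 for dnj-10 itself, and 78.2 and 82.8 by replicate. That peak was in both replicate lists and held no element with at most 1 mismatch.

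The gene upstream of lonp-1 is spcs-1, 97 bp away, followed by sdha-2, a subunit of succinate dehydrogenase, 221 bp further, and by ndua-13, 237 bp further. Of these, only sdha-2 had a pooled peak in its window, 138 bp upstream of its start (10685573 to 10685876), with a pooled signal of 73.8, and 31.1 and 41.6 by replicate. It was in neither replicate list. It held no exact element and 2 with 1 mismatch.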
